A study of Mus musculus with 104 samples.

Results

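The 32 genes described here are Atf4 and genes that the Atf4 response to amino acid shortage is known to raise. They were chosen as a named list, with earlier results of these data known: the choice used their lower levels in the Tbc1d8, Gsg1l and Dach1 lines and their correlation with Atf4. All 32 are among the 24060 genes of the RefSeq count table, and all 32 passed the filter on low counts that left 15532 tested genes. Because the differences of the 3 lines and the correlations with Atf4 chose the genes, they are given below as a description only: where a gene is said to be called in 1 of these lines, the word marks a difference that is large for its spread and is no test of the genes. Sex, the plate and the differences among the 10 other lines were not used in that choice and were tested.

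RNA-seq libraries were made from the cerebral cortex of wild-type C57BL/6 mice aged 6 months, 4 females (52 in all) and 4 males (52 in all) in each of 13 lines. The lines are Tbc1d8, Gsg1l and Dach1, and, as the set they are compared with, Arpp19, Ece2, Hrk, Kdm3b, Morf4l1, Pcdh20, Ppp1ca, Rasgef1a, Rgs9 and Zswim6 (80 libraries). Every mouse is labelled wild type, so no animal here is labelled as carrying an allele of the gene its line is named after. The labels give the line as a batch and name no C57BL/6 substrain, so line, batch and substrain cannot be told apart. Separate mice are the replicates, and libraries are named by line, sex and the number in their label.

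Atf4 is a transcription factor whose protein is made when the initiation factor eIF2 is phosphorylated, which happens when a cell runs short of amino acids or when unfolded protein builds up. With partners of the C/EBP family it raises genes for amino acid import and synthesis, one-carbon metabolism in mitochondria and the charging of tRNAs, and genes that slow growth or restore translation. In the brain the pathway is known for its part in synaptic plasticity, in the response to injury and in white matter disease caused by faults of eIF2B.

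The DNA element that Atf4 and C/EBP proteins are known to bind together was searched in promoters, because the genes are known targets of Atf4. RefSeq promoter windows (GRCm38.p6, 250 bases before to 50 bases after each start site) were found for 27 of the 32 genes; Slc7a3, Slc7a5, Eif4ebp1, Cth and Slc1a5 had none. The letters TGATGNAA, on either strand, were found in 8 of these 27 genes (29.6%), against 1219 of all 27025 genes with a window (4.51%) and 314 of the 11497 tested genes with one (2.73%). Trib3 and Slc1a4 hold the element at or after the start site. The other 6 genes hold it upstream, and the stretch around it is shown for them on the strand of the gene, 5′ to 3′, with the element in capitals:
Asns (chr6:7693210-7693258, minus strand): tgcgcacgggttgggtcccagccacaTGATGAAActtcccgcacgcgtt
Slc7a11 (chr3:50443627-50443705, minus strand): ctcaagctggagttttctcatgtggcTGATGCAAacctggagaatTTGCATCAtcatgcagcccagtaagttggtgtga
Pycr1 (chr11:120643818-120643877, minus strand): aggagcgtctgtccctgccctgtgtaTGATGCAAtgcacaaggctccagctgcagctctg
Chac1 (chr2:119351023-119351082, plus strand): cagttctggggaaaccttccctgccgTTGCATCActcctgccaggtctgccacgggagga
Vldlr (chr19:27216794-27216853, plus strand): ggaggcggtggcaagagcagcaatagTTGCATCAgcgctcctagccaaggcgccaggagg
Nupr1 (chr7:126625547-126625606, minus strand): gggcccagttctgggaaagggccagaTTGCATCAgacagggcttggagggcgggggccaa
Slc7a11 holds the element once on each strand. The stretches of Slc7a11 and Vldlr lie inside the spans of their genes (chr3:50364936-50499087 and chr19:27216480-27254231), so they are upstream only of an internal start site. Vldlr had 2 windows, and 1 held the element. Of these 6 genes, Asns, Pycr1, Chac1 and Vldlr were called lower in the Tbc1d8 line and Slc7a11 and Nupr1 were not, as described below. A match of letters is no evidence that a factor is bound in these cortices, and a window without the letters says only that they are not in that window. The 32 genes lie on 12 chromosomes.

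Every library but Kdm3b female 22 held 23.9 to 33.5 M reads in RefSeq genes, with a median of 28.4 M. Kdm3b female 22 held 3.39 M reads, which left it 4 reads for Pycr1, 2 for Trib3 and 6 for Stc2. In 3 libraries of the 10 other lines (Rasgef1a female 39, Rasgef1a male 40 and Rgs9 female 43) the sex-linked genes went against the sex label. In Gsg1l male 13, 10.9% of all tested genes were below the lowest of the 80 libraries of the 10 other lines, more than in any other library of the 3 lines. Gsg1l female 14, Dach1 female 5, Dach1 female 7 and Dach1 male 7 stood apart from the other libraries of their lines for the genes described here. Line differences and correlations with Atf4 that rest on them are given with and without them. Of 38 tested markers in 10 lists of brain, choroid plexus and blood cells, 1 was lower and 5 higher in the Tbc1d8 line, 1 lower and 4 higher in Gsg1l, and none was called in Dach1; the median summed level of all 10 lists lay inside the range of the 80 libraries in each of the 3 lines. The largest differences among these calls were in Ppp1r1b (0.17 in Tbc1d8 and 0.19 in Gsg1l, log2), a striatal marker, and P2ry12 (0.18 in Gsg1l), a microglial marker. All 5 oligodendrocyte markers had estimates below 0 in Tbc1d8 (median log2 -0.13) and in Gsg1l (median -0.14), and the median was 0.02 in Dach1. Their summed level was 1650 to 2000 CPM in Tbc1d8 and 1560 to 2210 CPM in Gsg1l, against 1290 to 2400 CPM in the 80 libraries. With scores of the oligodendrocyte, striatal, choroid plexus and erythroid lists as covariates, 19 of the 32 genes were called lower in Tbc1d8 and 18 in Gsg1l, against 20 and 19 without them. Excitatory neuron markers were abundant in the tissue, and the haemoglobin genes Hbb-bs and Hbb-bt were listed at 0 in every library.

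In the Tbc1d8 line 20 of the 32 genes were lower than in the 10 other lines and none was higher; 12 were not called. In the Gsg1l line 19 were lower, none was higher and 13 were not called. In the Dach1 line none was called, although 27 of 32 had an estimate below 0. Ddit3 (log2 difference 0.16) and Mthfd1l (0.14) were among those above 0. Called means a Benjamini-Hochberg adjusted p under 0.05, over all tested genes, in edgeR's quasi-likelihood test of a line against the mean of the 10 other lines. By that rule 8.54% of all tested genes were called lower and 7.14% higher in Tbc1d8, 7.85% lower and 6.38% higher in Gsg1l, and 0.135% lower and 0.0966% higher in Dach1. The median log2 difference of the 32 genes was -0.19 in Tbc1d8, where that of all tested genes was 0.0044, -0.16 in Gsg1l against 0.0033, and -0.06 in Dach1 against -5e-04. Since the genes were chosen on these contrasts, nothing is read from these counts. Within plate 1, 19 genes were lower in Tbc1d8, 18 in Gsg1l and none in Dach1. In bulk tissue, fewer cells of a type and less RNA per cell cannot be told apart.

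**Figure D1:**
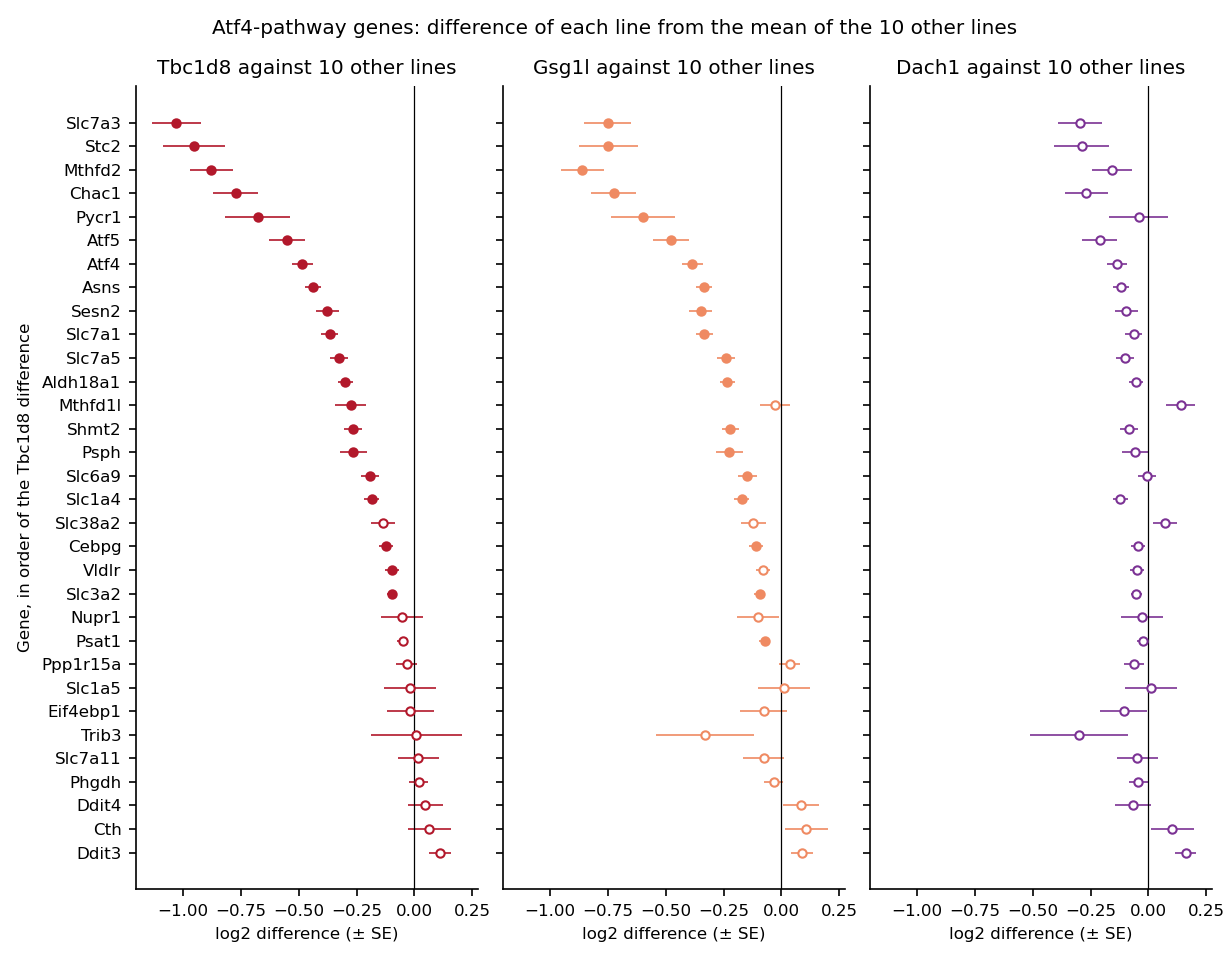
Log2 difference (horizontal axis, ± SE) of each of the 32 genes in Tbc1d8, Gsg1l and Dach1 (8 libraries each) from the mean of the 10 other lines (80 libraries); filled points are called lower, open points are not called. Slc7a3, Stc2, Mthfd2, Chac1 and Pycr1 are farthest below 0 in Tbc1d8 and Gsg1l, and no point is filled in Dach1.

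Atf4 itself, on chromosome 15, had 102 to 120 CPM (reads scaled to library size with TMM factors, median 109) in the 8 Tbc1d8 libraries, 106 to 136 CPM (median 117) in Gsg1l and 108 to 168 CPM (median 148) in Dach1, against 125 to 187 CPM (median 153) in the 80 libraries of the 10 other lines. All 8 Tbc1d8 libraries were below all 80, 6 of 8 Gsg1l libraries were, and so were 3 of 8 Dach1 libraries. The fitted log2 difference was -0.49 ± 0.05 (SE) in Tbc1d8, which is 1.4-fold lower, -0.38 ± 0.04 in Gsg1l and -0.14 ± 0.04 in Dach1. In Dach1 female 5, female 7 and male 7 Atf4 was at 108, 111 and 114 CPM, inside the range of the Tbc1d8 line. In the other 5 Dach1 libraries it was at 144 to 168 CPM, inside the range of the 10 other lines.

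Among the transcription factors that act with or below Atf4, Atf5, a related factor under the same translational control, was lower by about as much as Atf4. It had 11.2 to 14.3 CPM in Tbc1d8, 11.8 to 16.5 CPM in Gsg1l and 11.7 to 20.2 CPM in Dach1, against 15.5 to 42.1 CPM in the 80 libraries. Its log2 difference was -0.55 ± 0.08 in Tbc1d8 and -0.48 ± 0.08 in Gsg1l, with every Tbc1d8 library below all 80. Cebpg, a C/EBP partner of Atf4, was lower by a smaller amount, with -0.12 ± 0.03 in Tbc1d8 and -0.11 ± 0.03 in Gsg1l, and its ranges overlapped those of the 80 libraries in every line. Ddit3 (Chop), the factor linked to cell death under lasting stress, was not called: it averaged 18 ± 0.89 CPM in Tbc1d8, 17.7 ± 2.72 CPM in Gsg1l and 18.6 ± 1.47 CPM in Dach1 (SD, n = 8 each), against 16.6 ± 1.48 CPM in the 10 other lines (SD, n = 80). Its estimates were above 0 in all 3 lines. Without Gsg1l female 14 it was called higher in Gsg1l (log2 difference 0.14), as it was in males alone (0.24), and in females alone its estimate was -0.07. Trib3, a pseudokinase that holds Atf4 and Ddit3 in check, was at 0.57 ± 0.23 CPM in Tbc1d8 and 0.57 ± 0.21 CPM in the 10 other lines, too few reads for a firm estimate (log2 difference 0.01 ± 0.20). Nupr1, a small stress-induced chromatin protein, was not called in any of the 3 lines (log2 -0.05, -0.10 and -0.03 in Tbc1d8, Gsg1l and Dach1).

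Of the 9 genes for amino acid transporters, 6 were lower in both Tbc1d8 and Gsg1l, and Slc7a11, Slc1a5 and Slc38a2 were called in neither. Slc7a3 (CAT-3), a cationic amino acid transporter of neurons on the X chromosome, had the lowest estimate of the 32 genes in Tbc1d8. It was at 3.75 to 5.92 CPM (median 4.98) in Tbc1d8, 4.38 to 10.8 CPM (median 5.24) in Gsg1l and 4.03 to 11.6 CPM (median 9.35) in Dach1, against 7.83 to 13.9 CPM (median 9.60) in the 80 libraries. No Tbc1d8 library overlapped the 80, and in Gsg1l only female 14, at 10.8 CPM, did. The log2 difference was -1.03 ± 0.11 in Tbc1d8, which is 2.04-fold lower, -0.75 ± 0.10 in Gsg1l and -0.30 ± 0.10 in Dach1. Its relative Slc7a1 (CAT-1), present in most cells, was lower by 0.37 ± 0.04 on the log2 scale in Tbc1d8 and 0.33 ± 0.04 in Gsg1l. Slc7a5 (LAT1), the light chain of the large neutral amino acid exchanger, was at 67.5 to 78.8 CPM in Tbc1d8 and 70.5 to 99.9 CPM in Gsg1l, against 81.7 to 117 CPM in the 80 libraries, with every Tbc1d8 library below all 80. Slc3a2, the heavy chain that Slc7a5 and Slc7a11 share, differed by a fraction of that: -0.10 ± 0.02 in Tbc1d8 and -0.09 ± 0.02 in Gsg1l.

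Slc7a11 (xCT), which exchanges cystine for glutamate and holds the element on both strands, was at 41 to 64.5 CPM in Tbc1d8, against 36.1 to 75 CPM in the 80 libraries (log2 difference 0.02 ± 0.09). Slc1a4, which carries serine and alanine, was lower in Tbc1d8 (-0.18 ± 0.03) and Gsg1l (-0.17 ± 0.03), as was Slc6a9 (GlyT1), the glycine transporter of glia (-0.19 ± 0.04 and -0.15 ± 0.04). Slc1a5 and Slc38a2, both carriers of glutamine, were not called, with log2 differences of -0.02 ± 0.11 and -0.13 ± 0.05 in Tbc1d8.

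**Figure D2:**
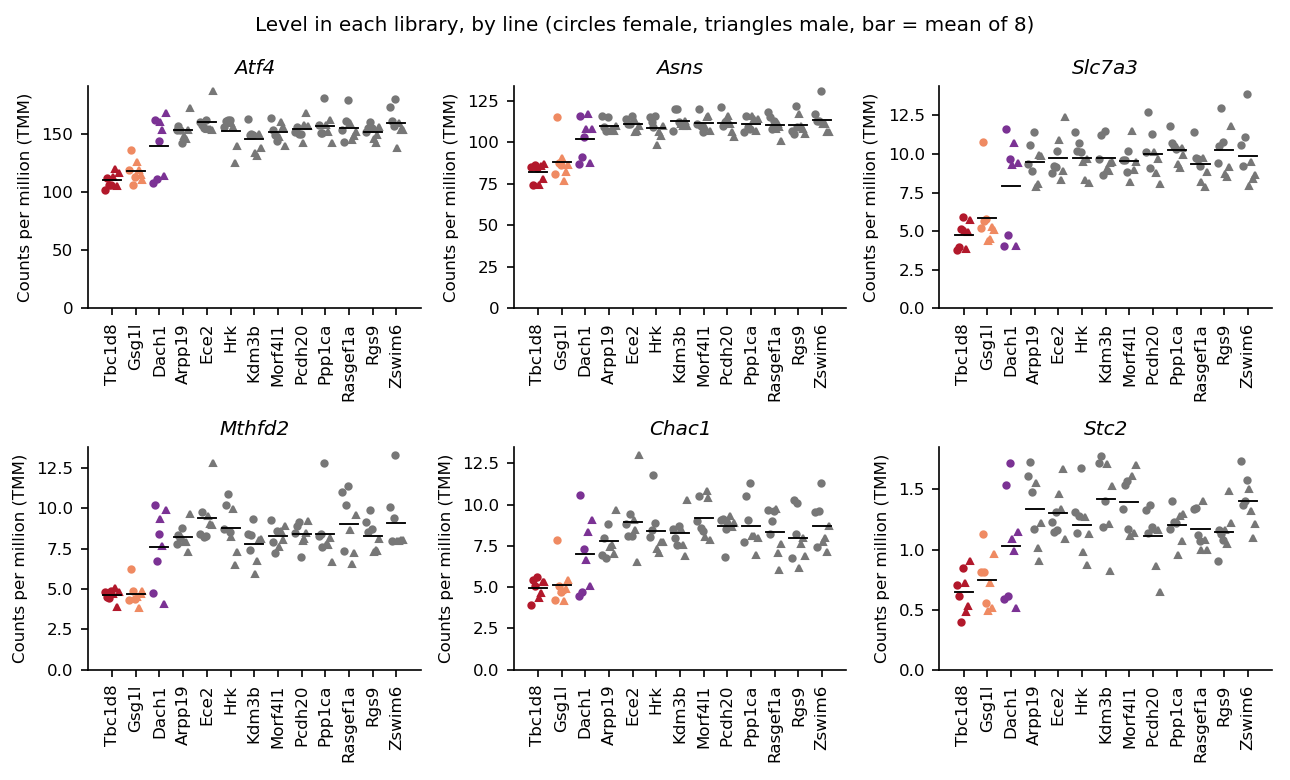
CPM (vertical axis, from 0) of 6 genes in every library, by line, with the 3 lines at the left of each panel; circles are females, triangles are males and bars are the means of 8. The 8 Tbc1d8 libraries are all below the 80 of the 10 other lines for Atf4, Asns, Slc7a3, Mthfd2 and Chac1, and 4 are for Stc2. In Gsg1l 1 female stands above its line for Asns, Slc7a3, Mthfd2 and Chac1. Dach1 female 5, female 7 and male 7 lie below the other 5 libraries of their line for Atf4, Asns, Slc7a3, Mthfd2 and Chac1.

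Asns, the enzyme that makes asparagine, was lower in both Tbc1d8 and Gsg1l. It was at 74.3 to 87.1 CPM (median 84.8) in Tbc1d8, 76.5 to 115 CPM (median 86.3) in Gsg1l and 86.6 to 117 CPM (median 105) in Dach1, against 98.2 to 131 CPM (median 110) in the 80 libraries. All 8 Tbc1d8 libraries and 7 of 8 Gsg1l libraries were below all 80, and the log2 differences were -0.44 ± 0.04 and -0.33 ± 0.04. Aldh18a1 and Pycr1, successive enzymes of proline synthesis, were lower by 0.30 ± 0.03 and 0.68 ± 0.14 on the log2 scale in Tbc1d8, and by 0.24 ± 0.03 and 0.60 ± 0.14 in Gsg1l. Pycr1 is weakly expressed, at 0.77 ± 0.19 CPM in Tbc1d8 and 1.23 ± 0.31 CPM in the 10 other lines, and 2 of 8 Tbc1d8 libraries were below all 80. Cth, which makes cysteine from cystathionine, was not called in any of the 3 lines (3.20 ± 0.54 CPM in Tbc1d8 and 3.07 ± 0.57 CPM in the 10 other lines).

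Of the 3 enzymes of serine synthesis, the last was lower in both Tbc1d8 and Gsg1l. Phgdh, the first step, was at 16.4 ± 1.36 CPM in Tbc1d8 and 16.2 ± 1.22 CPM in the 10 other lines (log2 0.02 ± 0.04). Psat1, the second, was not called in Tbc1d8 (-0.05 ± 0.02) and was called lower in Gsg1l (-0.07 ± 0.02), a call lost in 9 of 16 alternatives, among them plate 1 alone and either sex alone. Psph, the last step, was lower in both (-0.26 ± 0.06 and -0.23 ± 0.06).

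The 3 mitochondrial folate enzymes downstream of serine were lower in Tbc1d8, and 2 of them in Gsg1l. Mthfd2, which oxidises the one-carbon unit, was at 3.86 to 5.06 CPM (median 4.75) in Tbc1d8, 3.81 to 6.22 CPM (median 4.60) in Gsg1l and 4.07 to 10.2 CPM (median 8.06) in Dach1, against 5.95 to 13.3 CPM (median 8.32) in the 80 libraries. Every Tbc1d8 library and all Gsg1l libraries but female 14 were below all 80, with log2 differences of -0.88 ± 0.09 and -0.86 ± 0.09. Shmt2, which takes the one-carbon unit from serine, was lower by 0.26 ± 0.04 in Tbc1d8 and 0.22 ± 0.04 in Gsg1l on the log2 scale. Mthfd1l, which releases formate, was lower in Tbc1d8 (-0.28 ± 0.07), not in Gsg1l (-0.03 ± 0.06), and had an estimate above 0 in Dach1 (0.14 ± 0.06). In Tbc1d8 its call was lost with marker scores of 4 cell type lists as covariates, and in males alone.

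Among the genes that feed back on growth, redox and translation, Chac1, which degrades glutathione, was at 3.93 to 5.59 CPM (median 5.19) in Tbc1d8, 4.15 to 7.88 CPM (median 4.84) in Gsg1l and 4.45 to 10.6 CPM (median 7) in Dach1, against 6.06 to 13 CPM (median 8.29) in the 80 libraries. All Tbc1d8 libraries were below all 80, and the log2 differences were -0.77 ± 0.10 in Tbc1d8 and -0.72 ± 0.10 in Gsg1l. Stc2, a secreted glycoprotein, was near the limit of detection, at 0.65 ± 0.18 CPM in Tbc1d8 and 0.75 ± 0.23 CPM in Gsg1l, against 1.27 ± 0.24 CPM in the 10 other lines (log2 -0.95 ± 0.13 and -0.75 ± 0.13), and 4 of 8 Tbc1d8 libraries were below all 80. Sesn2, a leucine sensor that restrains mTORC1, was lower by 0.38 ± 0.05 and 0.35 ± 0.05 on the log2 scale in Tbc1d8 and Gsg1l. Vldlr, a lipoprotein and reelin receptor, differed by -0.10 ± 0.03 in Tbc1d8, a call lost within plate 1 and in females alone.

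The remaining 3 feedback genes were not called in any of the 3 lines. Ddit4 (Redd1), an inhibitor of mTORC1, was at 26.6 ± 3.58 CPM in Tbc1d8 and 25.8 ± 4.2 CPM in the 10 other lines. Eif4ebp1, which blocks cap-dependent translation, was at 3.09 ± 0.47 CPM and 3.13 ± 0.63 CPM in the same groups. Ppp1r15a (Gadd34), which directs the removal of phosphate from eIF2, was at 14 ± 1.82 CPM in Tbc1d8 and 14.3 ± 1.19 CPM in the 10 other lines. Ddit3 and Ppp1r15a, both raised by Atf4 under strong stress, were thus not called where Asns and Slc7a3 were lower.

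In 7 genes (Atf4, Asns, Slc7a3, Slc7a5, Mthfd2, Chac1 and Atf5) every Tbc1d8 library was below all 80 libraries, which held for 0.206% of all tested genes. In 7 genes at least 7 of 8 Gsg1l libraries were, against 0.212% of all tested genes. They are the same list with Sesn2 in the place of Atf4. These counts rest on the contrasts that chose the genes.

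Counted by library, 8 to 13 of the 32 genes were below all 80 libraries in each Tbc1d8 mouse, where 1.7 to 5.46% of all tested genes were. In Gsg1l the number was 9 to 14 in 7 mice and 4 in female 14, with 1.79 to 10.9% of all tested genes below. In Dach1 it was 11 each in female 5, female 7 and male 7, and 0 or 1 in the other 5 mice, with 1.52%, 2.78% and 1.85% of all tested genes below in the 3 and 0.406 to 1.49% in the other 5. Each of the 80 libraries, set against the other 79, had 0 to 3 genes below, with a median of 0. Of all tested genes 0.27 to 3.8% were below in these libraries other than Kdm3b female 22, the library of few reads, which had 3 of the 32 genes and 13.5% of all tested genes below. The Dach1 line thus held mice of both kinds, and so did both of its sexes: 2 of 4 females and 1 of 4 males were low. Dach1 female 5 and male 7 were on plate 2 and female 7 on plate 1.

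**Figure D3:**
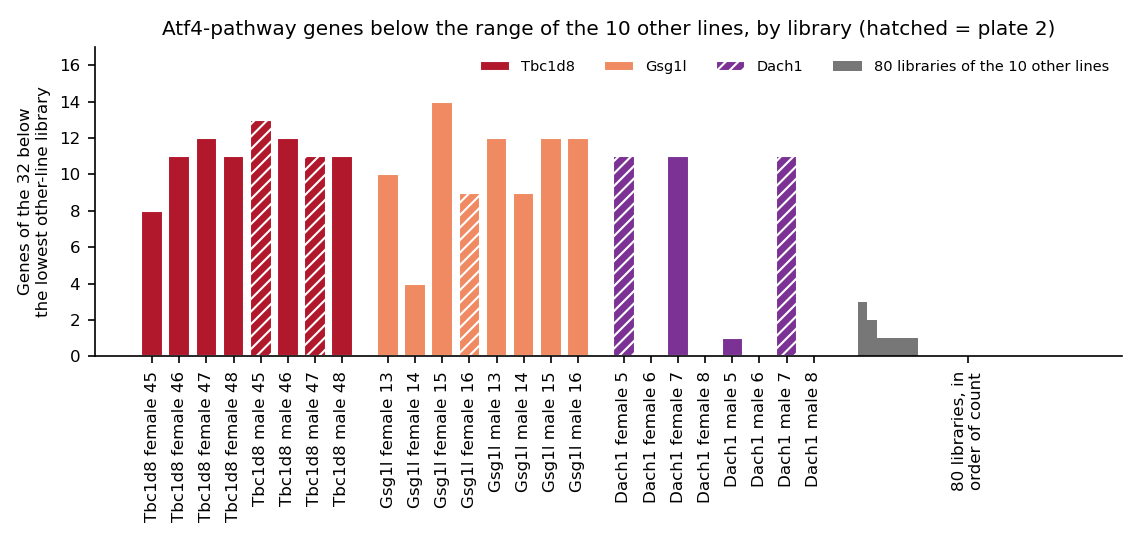
Number of the 32 genes (vertical axis) below the lowest of the 80 libraries of the 10 other lines, for each library of Tbc1d8, Gsg1l and Dach1, and at the right for each of the 80 against the other 79; hatched bars are plate 2. Dach1 female 5, female 7 and male 7 have 11 each, inside the range of the Tbc1d8 libraries, and the 80 have at most 3.

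The 3 low Dach1 libraries, singled out after their values were seen, were low for the same genes. Slc7a3 was at 4.03, 4.74 and 4.03 CPM in Dach1 female 5, female 7 and male 7, and at 9.28 to 11.6 CPM in the other 5. Asns was at 86.6, 91.3 and 87.2 CPM in these 3, and at 103 to 117 CPM in the other 5. Chac1 was at 4.45, 4.71 and 5.09 CPM in the 3, and at 6.65 to 10.6 CPM in the other 5. For these genes no library of the 3 overlapped the other 5. Mthfd2 was less even, at 4.73, 6.77 and 4.07 CPM in the 3 and 7.7 to 10.2 CPM in the other 5. Without the 3, the median log2 difference of the 32 genes in Dach1 was 0.02, with 14 of 32 below 0, none called, and a range of -0.16 to 0.17; with all 8 libraries it was -0.06.

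In Gsg1l, female 14 stood on the other side. Slc7a3 was at 10.8 CPM there and at 4.38 to 5.79 CPM in the other 7 Gsg1l mice, and Asns was at 115 CPM there and at 76.5 to 90.5 CPM in the other 7. Leaving female 14 out kept 19 genes lower in Gsg1l and moved the lowest log2 difference to -0.92. Leaving out Gsg1l male 13 instead also left 19 genes lower, with a median of -0.16.

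Nnt and Gabra2, genes whose levels are known to differ among C57BL/6 substrains, were higher in Tbc1d8 and Gsg1l, opposite to the Atf4 genes called there. The log2 differences were 0.59 and 0.51 for Nnt and 0.82 and 0.68 for Gabra2. Over the 80 libraries, with line and sex means removed, their Pearson's r with Atf4 was above 0 (0.346 for Nnt and 0.492 for Gabra2). No library of the 80 reached the Nnt or Gabra2 levels of Tbc1d8. These r therefore cannot show whether such high levels go with low Atf4 genes. Among single mice of Tbc1d8, Gsg1l and Dach1, high Nnt and Gabra2 went with low Atf4 genes only in part. Nnt was at 30.5 to 34.9 CPM in Tbc1d8 and 30.7 to 35.2 CPM in the Gsg1l mice other than female 14, against 18.3 to 27.5 CPM in the 80 libraries; in Gsg1l female 14 it was at 23.4 CPM. In all 8 Dach1 mice Nnt was at 19.2 to 22.6 CPM, the level of the 10 other lines, in the 3 low mice too. Gabra2 was at 48.6 to 60.7 CPM in Tbc1d8, 45.2 to 58.4 CPM in the Gsg1l mice other than female 14 and 26 CPM in female 14, against 25.5 to 41.7 CPM in the 80 libraries. In Dach1 it was at 49.2 and 54.5 CPM in female 7 and male 7 and at 33.6 CPM in female 5, all 3 of which were low for the Atf4 genes, and at 47.9 and 49.1 CPM in male 6 and male 8, which were not. The part of substrain, batch or husbandry in these differences was not tested.

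Medians of other genes of the pathway, from fixed lists, were near 0 in Tbc1d8, and the lists were drawn up with earlier results known. For the counts that follow, 8.54% of all tested genes were called lower and 7.14% higher in Tbc1d8. Of 10 tested other genes that depend on Atf4, 4 were lower and none higher (median log2 -0.04). They were Aldh1l2, a mitochondrial folate enzyme, at 2.89 ± 0.33 CPM in Tbc1d8 and 4.73 ± 0.60 CPM in the 10 other lines (log2 -0.70 ± 0.09), the autophagy genes Sqstm1 (-0.08 ± 0.01) and Map1lc3b (-0.10 ± 0.02), and Vegfa (-0.13 ± 0.04). Of 15 genes for eIF2 kinases and eIF2 control, 3 were lower and 2 higher (median -0.02). Ppp1r15b, the constitutive eIF2 phosphatase subunit, was at -0.13 ± 0.03, the haem-regulated kinase Eif2ak1 at -0.09 ± 0.02 and Impact, an inhibitor of the amino acid sensing kinase Gcn2, at -0.07 ± 0.02; Gcn2 itself (Eif2ak4) was higher, at 0.10 ± 0.03. Of 12 other amino acid transporters 1 was lower (Slc38a1, -0.15 ± 0.03), of 11 other serine, glycine and folate genes 1 (Mthfd1, -0.06 ± 0.02), and of 12 genes of the Atf6 and Xbp1 arms of the unfolded protein response 1 (Herpud1, -0.20 ± 0.04), with none higher in these 3 lists. In Gsg1l 3 of the 10 genes that depend on Atf4 were lower and 1 higher, and of the 15 eIF2 genes 4 and 2. Of the transporters 1 was lower and 1 higher, and of the serine, glycine and folate genes 1 was lower. None of the Atf6 and Xbp1 genes was called there. Of all tested genes, 7.85% were called lower and 6.38% higher in Gsg1l. The medians of the 5 lists in Gsg1l lay between -0.05 and 0.04, with Aldh1l2 again the farthest from 0 of those called (-0.63 ± 0.09). In Dach1 no gene of the 5 lists was called.

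Levels per length were compared by FPKM, the authors' fragments scaled by gene length and depth, over the 80 libraries. Atf4 was the highest of the 32 at 88.9 ± 6.05 FPKM, followed by Asns at 57.6 ± 2.75, Slc3a2 at 38.6 ± 1.71 and Slc38a2 at 37.4 ± 3.55 FPKM (SD, n = 80). Slc3a2 and Slc38a2 do not differ beyond their spread. Psat1 (34.8 ± 1.51 FPKM), Slc7a5 (26.5 ± 1.93) and Slc1a4 (20.5 ± 1.26) came next. Trib3 was the lowest at 0.28 ± 0.10 FPKM, under Pycr1 at 0.42 ± 0.11, Stc2 at 0.71 ± 0.14 and Slc1a5 at 0.79 ± 0.17 FPKM. Slc7a3 and Mthfd2, with the larger log2 differences in Tbc1d8, were at 4.13 ± 0.54 and 4.14 ± 0.66 FPKM, far under Atf4 and Asns.

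No difference among the 10 other lines was detected for these genes. In edgeR's quasi-likelihood F-test among their 80 libraries none of the 32 genes was called, the smallest adjusted p was 0.614, and 1 gene (Aldh18a1) had an unadjusted p under 0.05; of all 15476 genes tested 0.0194% were called, that is 3. The line means of Atf4 ran between 146 CPM in Kdm3b and 160 CPM in Ece2, those of Asns between 109 and 113 CPM and those of Slc7a3 between 9.34 CPM in Rasgef1a and 10.3 CPM in Ppp1ca. None of the 10 alternatives run for this test called any of the 32.

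Slc1a4, Pycr1, Slc7a3 and Vldlr were slightly higher in females than in males. Of the 32, 4 were called higher in females and none lower (edgeR's quasi-likelihood test, 52 females and 52 males, with line as a term), where 4.11% of all tested genes were called higher and 4.5% lower. Slc1a4 averaged 80.2 ± 6.24 CPM in females and 77.3 ± 5.6 CPM in males (log2 difference, female minus male, 0.05 ± 0.02, adjusted p = 0.0395), and its female mean was higher in 11 of 13 lines. Pycr1 averaged 1.24 ± 0.36 CPM in females and 1.08 ± 0.29 CPM in males (0.20 ± 0.07, adjusted p = 0.0431, 11 of 13 lines). Slc7a3, on the X chromosome, averaged 9.43 ± 2.37 CPM in females and 8.49 ± 1.99 CPM in males (0.15 ± 0.05, adjusted p = 0.0434, 10 of 13 lines). Vldlr averaged 99.4 ± 6.01 CPM in females and 96 ± 6.25 CPM in males (0.05 ± 0.02, adjusted p = 0.0454, 11 of 13 lines). The female and male values overlapped widely for each of the 4, and all 4 adjusted p-values are near the threshold. These fits count every library by its labelled sex, also the 3 whose sex-linked genes went against it. Without those 3 libraries Slc1a4 (0.05) and Vldlr (0.05) were called higher in females, Mthfd1l (-0.11) and Ppp1r15a (-0.07) were called lower, and Slc7a3 (0.14) and Pycr1 (0.19) were not called.

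Over all 32 genes, 25 had an estimate above 0 and the median log2 difference was 0.04, where that of all tested genes was 2e-04; 17 had an unadjusted p under 0.05, as had 22.8% of all tested genes. Atf4 itself averaged 148 ± 20 CPM in females and 145 ± 17.5 CPM in males (0.02 ± 0.02, adjusted p = 0.594). Mthfd1l (-0.10 ± 0.03, adjusted p = 0.0534), Ppp1r15a (-0.06 ± 0.02, adjusted p = 0.0682) and Phgdh (-0.06 ± 0.02, adjusted p = 0.0633) were the lowest in females among those with an unadjusted p under 0.05, and none was called. In the 10 other lines alone Slc1a4 (0.06), Slc7a3 (0.16), Mthfd2 (0.15) and Asns (0.05) were called higher in females, while Pycr1 and Vldlr were not called. Within plate 1, 5 genes were called higher in females and none lower, and Vldlr was not among them. No variation of the sex difference between lines was detected by the F-test of the interaction: none of the 32 genes was called, none had an unadjusted p under 0.05, and 0.0386% of all tested genes were called.

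**Figure D4:**
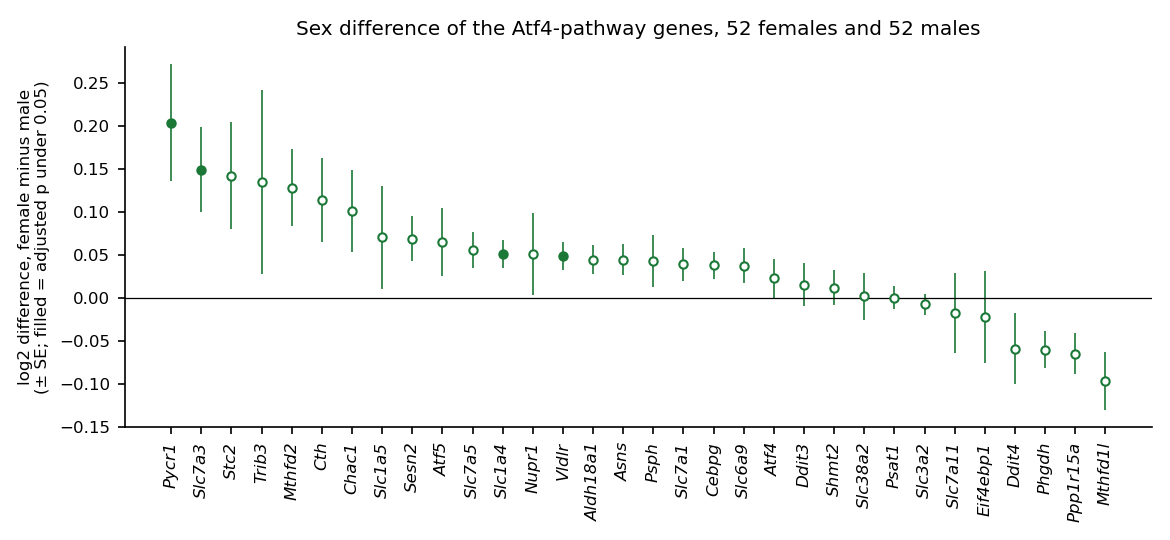
Log2 difference, female minus male (vertical axis, ± SE), of each of the 32 genes in 52 females and 52 males, with line as a term; filled points have an adjusted p under 0.05. Pycr1, Slc7a3, Slc1a4 and Vldlr are filled, all above 0, and Mthfd1l is the lowest.

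Plate 2 held 8 libraries, 5 of them from the Tbc1d8, Gsg1l and Dach1 lines, and plate 1 held 96. With line and sex as terms, none of the 32 genes was called between plate 2 and plate 1, 4 had an unadjusted p under 0.05, where 12.6% of all tested genes had, and the smallest adjusted p was 0.117 (Asns); 0.258% of all tested genes were called. Asns averaged 92.6 ± 14.9 CPM on plate 2 and 108 ± 10.5 CPM on plate 1 (log2 difference -0.11 ± 0.03).

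Between mice of the same line and sex, Atf4 varied with only some of the 32 genes. Correlations are Pearson's r of log2 CPM after line and sex means were removed, over the 80 libraries of the 10 other lines, because single Gsg1l and Dach1 mice stood apart. The points share library, depth and scaling. The median r over the 31 genes other than Atf4 was 0.187, and 6 of 31 had an r over 0.5, against 2.06% of all other tested genes. Mthfd2 had the highest (r = 0.695, Spearman's rho = 0.614, and r = 0.639 without the 2 libraries farthest from the median of Atf4), followed by Ddit3 (0.59), Cebpg (0.581), Psph (0.539), Aldh18a1 (0.53) and Atf5 (0.511). Asns, lower in every Tbc1d8 library, had an r of 0.023 with Atf4 and Stc2 one of -0.098. Ddit3, by contrast, followed Atf4 between mice (rho = 0.598) although it was not lower in any of the 3 lines. The lowest were Slc6a9 (-0.332) and Mthfd1l (-0.32). Over all 13 lines the median r was 0.314 and 9 of 31 were over 0.5, with the low Dach1 mice and Gsg1l female 14 in it; Asns was then at 0.434 and Slc7a3 at 0.593, against 0.288 in the 80. Over the means of the 10 other lines the median r of the 31 genes was 0.37, where that of all other tested genes was 0.023.

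**Figure D5:**
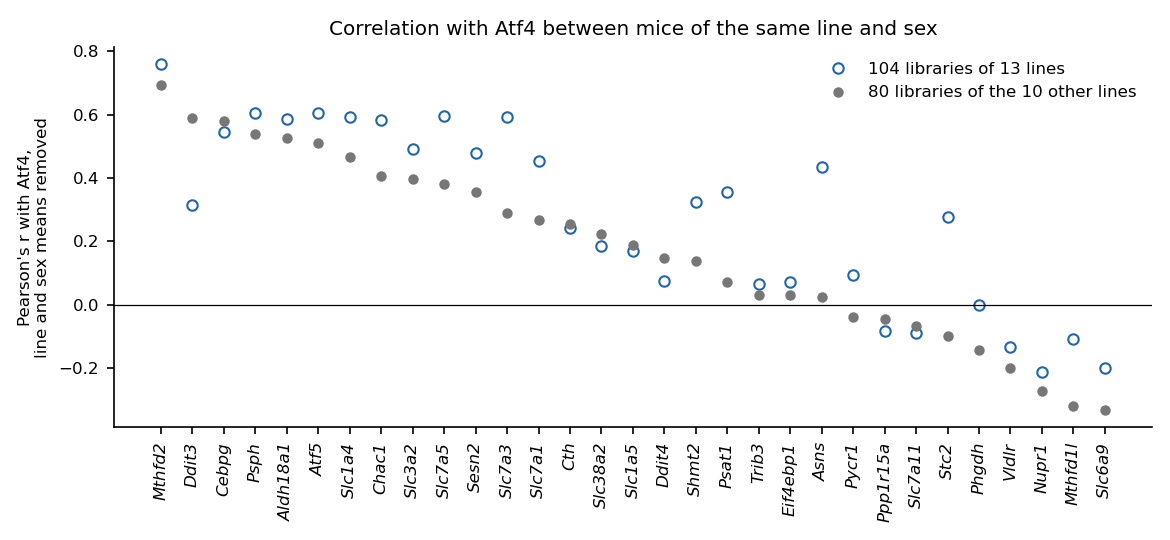
Pearson's r with Atf4 (vertical axis) of the other 31 genes between mice of the same line and sex, over all 13 lines (open) and over the 80 libraries of the 10 other lines (filled), in order of the filled points. Mthfd2 is the highest in both, and Asns, Slc7a3 and Stc2 drop when the 3 lines are left out.

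The tested genes most like Atf4 outside the list, by the r over all 13 lines, were Cars (0.729), the cysteinyl-tRNA synthetase, Dnaja2 (0.684), a co-chaperone, Snrpd1 (0.671), a core protein of spliceosomal particles, Chtop (0.664), an mRNA export factor, and Eif4g2 (0.663), a translation initiation factor. Over the 80 libraries they stood at 0.558, 0.587, 0.548, 0.606 and 0.63. There the highest r of all other tested genes was 0.725, so the gene most like Atf4 by that measure is not among them. The most opposite were Pde1b (-0.672), a cyclic nucleotide phosphodiesterase, and BC068157 (-0.648). Cars was also lower in Tbc1d8 (log2 -0.37 ± 0.04) and Gsg1l (-0.31 ± 0.04). Snrpd1 (-0.39 ± 0.04 and -0.29 ± 0.04) and Eif4g2 (-0.15 ± 0.02 and -0.17 ± 0.02) had negative estimates there too. So had Dnaja2 (-0.15 ± 0.02 and -0.14 ± 0.02) and Chtop (-0.12 ± 0.02 and -0.13 ± 0.02). These genes were picked by an r that includes the Gsg1l and Dach1 mice that stood apart. Their differences in these lines may be partly built in, so they are a description only. Of all tested genes, 8.54% were called lower and 7.14% higher in Tbc1d8, and 7.85% lower and 6.38% higher in Gsg1l. The opposite genes Pde1b (0.09 ± 0.03 and 0.14 ± 0.03) and BC068157 (0.16 ± 0.04 and 0.17 ± 0.04) had positive estimates.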

How the data were processed

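Cortex RNA was made into stranded TruSeq libraries, per the labels' protocols. Per the submitters' processing notes, the tools were STAR 2.7.3a and HTSeq 0.10.0, with GRCm38 and mm10 as builds; the counting mode and strand setting are not given in the sources used here, so reads of close gene copies and antisense genes may have been split. The deposited counts are whole reads per RefSeq symbol (24060 genes), and the deposited FPKM values were scaled by the authors to gene length and depth. An Ensembl count table, read for 19563 genes, served as an alternative.

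Line, sex and plate came from the labels. Counts were tested with edgeR 4.0.16 (TMM, filterByExpr by line, glmQLFit and glmQLFTest) in R 4.3.3, with 1 coefficient per line and sex as a term; SE is the log2 difference over the square root of F. Alternatives used DESeq2 1.42.0 and limma 3.58.1 on log2(FPKM + 0.1) and log2(FPKM + 1). Log2 CPM has a prior count of 2. The tests were checked on simulated counts.

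All 32 genes are named; of other genes, the 5 most and 2 least correlated with Atf4 and at most 4 per list called in Tbc1d8. The genes, lists and comparisons were chosen with earlier results of these data known. The label number, which runs through each sex, was not used as a pairing. No pair of libraries of a line and sex agreed within sampling noise (smallest chi-square per degree of freedom 2.49).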

Additional observations from a re-analysis of the deposited data

Results flagged for a closer look

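For each of the 32 genes in Tbc1d8, Gsg1l and Dach1, the highest and lowest of the 8 libraries were compared with the rest by the gap to the nearest library over the range. Of 96 such groups, 9 had a library apart; chance flags about 1 in 20 groups. In 6 of the 9 the library was Gsg1l female 14. It was high for Asns (115 CPM, against 76.5 to 90.5 CPM in the other 7), Slc7a3 (10.8 against 4.38 to 5.79 CPM), Slc7a5 (99.9 against 70.5 to 79.9 CPM), Chac1 (7.88 against 4.15 to 5.42 CPM) and Atf5 (16.5 against 11.8 to 13.7 CPM), and low for Nupr1 (3.22 against 6.18 to 7.99 CPM). In Tbc1d8, Slc3a2 was low in female 47 (98.5 against 106 to 112 CPM), Mthfd2 was low in male 47 (3.86 against 4.47 to 5.06 CPM) and Ddit4 was low in female 45 (19.6 against 25.6 to 32 CPM). No group of Dach1 had a single library apart. What sets these libraries apart was not tested.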

How the results depend on the processing

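The 20 genes lower in Tbc1d8 and the 19 lower in Gsg1l were refitted in 16 other ways (DESeq2, 2 filters, Ensembl counts, FPKM, leaving out libraries, 1 plate, 1 sex, marker covariates, 12 lines as the comparison). In Tbc1d8 13 of the 20 and in Gsg1l 12 of the 19 were called lower in every one, and no called gene changed sign. Leaving out Gsg1l or Dach1 libraries took none from the groups compared for Tbc1d8. Nor did leaving out Dach1 libraries for Gsg1l. Such refits could change little beyond the shared spread, so they hardly challenge those calls. Ddit3 became the 1 gene called higher in Gsg1l without Gsg1l female 14 and in males only. Slc7a3 became the 1 gene called lower in Dach1 with limma on log2(FPKM + 0.1). The 4 genes higher in females became 1 without a filter on low counts and with limma on either FPKM scale, and 2 when 3 libraries whose sex-linked genes contradict their labels were left out, or with marker covariates; the cause was not tested. Genes lower in females became 1 with DESeq2 or marker covariates and 2 without those 3 libraries. Slc1a4 was called higher in all 12 alternatives (adjusted p 0.0211 to 0.0481). With the label number as a replicate block, 5 were higher and 2 lower in females. Deviations of same-numbered females and males had an r of -0.493 to 0.682 (median 0.079, over 0.1 in 25 of 52 pairs). Mismatched pairs were not compared, so this check cannot tell whether the number pairs mice. The median r with Atf4 moved to 0.187 in the 80 libraries and 0.189 without the Dach1 and Gsg1l lines, a setting chosen after seeing the data. Leaving out 1 library at a time changed the sign of no gene called in Tbc1d8 or Gsg1l. Counts of few reads (Trib3, Stc2, Pycr1, Slc1a5) limit those genes most.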
